A study of Mus musculus with 2 samples.

Results

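The 9 genes described here encode receptors for dopamine and noradrenaline in the mouse brain: Drd1, Drd2, Drd5, Adra1a, Adra1b, Adra1d, Adra2a, Adra2c and Adrb1. They were taken by gene symbol from 55536 annotated genes, of which 22028 are protein coding. Total RNA of the left cerebral cortex was sequenced from 2 adult female B6CASTF1/J mice, hybrids of C57BL/6J and CAST/EiJ, aged 8 to 10 months and given no treatment that the labels name. Animal 5 gave the library called replicate 2 and animal 1 that called replicate 1, each made from 300 ng of RNA. They form the only group, so the data give receptor levels and how far the animals differed, and no test between conditions. The labels carry the same donor entry for both animals, and the animal numbers alone separate them.

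Both neurotransmitters are catecholamines, released in cortex by long axons whose cell bodies lie in the midbrain and in the locus coeruleus of the brainstem. All of their receptors are G protein-coupled receptors. D1-class receptors (Drd1, Drd5) and the beta receptor (Adrb1) couple mainly to Gs or Golf and raise cyclic AMP. The D2 receptor (Drd2) and the alpha-2 receptors (Adra2a, Adra2c) couple mainly to Gi and Go and lower it, and the alpha-1 receptors (Adra1a, Adra1b, Adra1d) act mainly through Gq and phospholipase C. Drd1 and Drd2 are best known from the striatum, where they mark the direct and the indirect pathway neurons.

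All 9 receptors share a conserved stretch at the inner end of the third transmembrane helix, where the Asp-Arg-Tyr motif involved in G protein coupling lies. Coding sequence of 60 bases around it is shown for each receptor, 5′ to 3′ on the gene's strand, to show how far reads of related receptors could be confused. Capitals mark the 9 bases of the motif's codons, found in frame in the GENCODE M21 transcripts.
Drd1: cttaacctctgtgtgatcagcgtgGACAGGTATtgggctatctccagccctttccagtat
Drd5: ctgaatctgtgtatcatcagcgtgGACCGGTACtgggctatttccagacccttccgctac
Adrb1: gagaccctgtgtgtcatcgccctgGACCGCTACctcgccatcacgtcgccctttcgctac
Drd2: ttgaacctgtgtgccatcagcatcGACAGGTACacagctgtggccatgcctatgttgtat
Adra2a: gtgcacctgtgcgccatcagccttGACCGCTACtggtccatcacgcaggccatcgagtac
Adra2c: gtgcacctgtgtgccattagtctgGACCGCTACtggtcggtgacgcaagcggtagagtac
Adra1a: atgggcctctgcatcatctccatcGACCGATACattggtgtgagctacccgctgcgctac
Adra1b: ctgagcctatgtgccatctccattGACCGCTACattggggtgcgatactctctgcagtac
Adra1d: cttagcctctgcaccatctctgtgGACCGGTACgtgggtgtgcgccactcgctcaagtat
In build mm10 the windows of Drd1, Adra1b and Adra1d lie on the minus strand at chr13:54053804-54053863, chr11:43835630-43835689 and chr2:131561575-131561634. Those of Drd5, Adra2c, Adra1a, Adra2a and Adrb1 lie on the plus strand at chr5:38320044-38320103, chr5:35280303-35280362, chr14:66637920-66637979, chr19:54046623-54046682 and chr19:56722810-56722869. The Drd2 window joins 2 exons between 49399817 and 49400774 on the plus strand of chromosome 9. The closest pair was Adra2a and Adra2c, with 49 of 60 bases identical, followed by Drd1 and Drd5 with 47 and Adra1a and Adra1b with 45. Adra1d and Adrb1 were the most distant pair, with 28 identical bases. No stretch of 31 bases was shared between the transcripts of any 2 of the 9 receptors. Stretches of that length shared with another gene on the same strand made up at most 2.03% of any receptor's total, in Adrb1.

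In total 30234441 estimated counts were deposited for all features of replicate 2, and 28327434 for those of replicate 1. Excitatory neuron markers of cortex were detected in 6 of 6 cases, led by Camk2a at 1108 TPM. TPM is a share of all transcripts scaled by length to a fixed total, and a gene was called detected where neither library fell under 1 TPM. Of 18 markers of striatal projection neurons 17 were also detected, with a median of 33.5 TPM; the labelled tissue is cortex. The libraries stood apart in immediate early genes, which neurons transcribe on activity: all 8 listed were lower in replicate 2, with a median log2 difference of −1.72. Unless named otherwise, values are from the authors' gene table (the first table), and the authors' other transcript table is the second table. Levels are given as the mean ± SD of the 2 animals. Log2 differences are taken as replicate 2 minus replicate 1.

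Of the 9 receptors, 8 were detected, against 26.8% of all genes and 58.9% of protein-coding genes. The exception was Drd5, which passed 1 TPM only in replicate 2. The 9 leave out 5 other receptors of these families, of which 1 was detected, and were chosen with earlier results known. Their detected share is therefore not that of the families as a whole. The median receptor level was 12.5 TPM in replicate 2 and 15.5 TPM in replicate 1, or 14.0 ± 2.07 TPM (SD, n = 2). The median of the 12958 detected nuclear protein-coding genes was 16.5 TPM, and 5 of the 9 receptors lay below it. By the G protein each couples to, the 3 Gs-coupled receptors took 40.9 ± 1.29% of the summed receptor TPM, the 3 Gi-coupled 30.3 ± 1.34% and the 3 Gq-coupled 28.9 ± 0.0514% (SD, n = 2). The 3 dopamine receptors made up 46.3 ± 1.47% of the sum and the 6 adrenergic receptors 53.7 ± 1.47%. In the second table the Gs share was lower, at 38.2% in replicate 2 and 33.8% in replicate 1, where the level of Drd1 was lower, as described next. The Gi share there was 30.5% in replicate 2 and 33.9% in replicate 1, so the Gs group led in replicate 2 and the groups were nearly equal in replicate 1. The dopamine receptors' share there was 41.8% in replicate 2 and 38.1% in replicate 1. Whether fewer cells carried a receptor or each cell held less of its RNA cannot be told apart in bulk tissue.

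**Figure D1:**
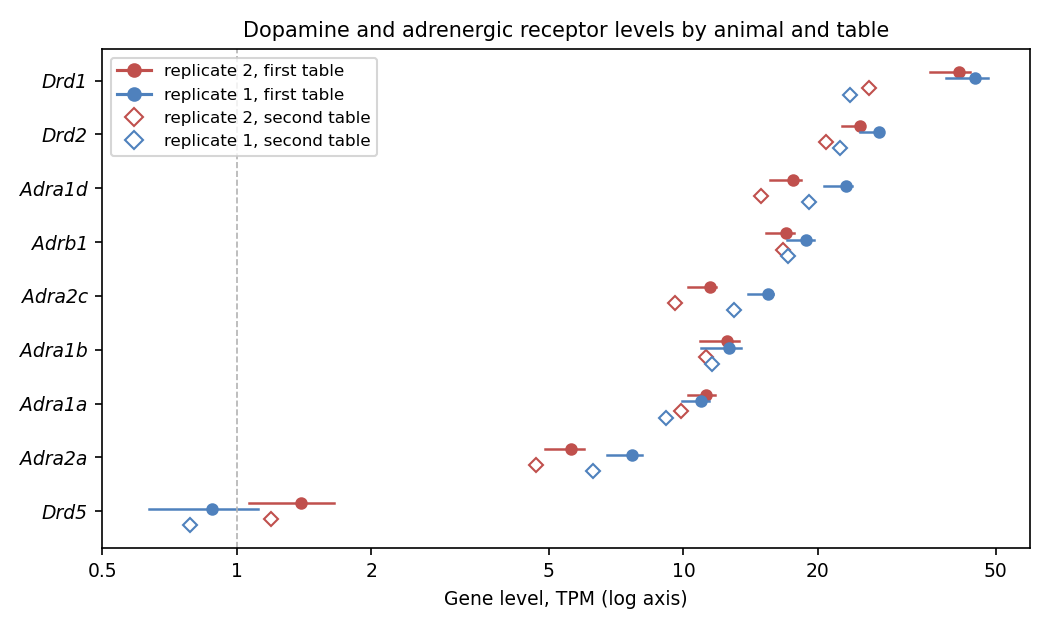
Level of each receptor in TPM on a log axis, with filled points for the first table (bars: the model's credibility interval) and open diamonds for the second, replicate 2 in red and replicate 1 in blue. Drd1 stands highest in both tables but at 43.2 TPM in the first and 24.8 TPM in the second, and Drd5 lies near the dashed line at 1 TPM.

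Drd1, the main dopamine receptor that raises cyclic AMP, reached 41.5 TPM in replicate 2, against 45.0 TPM in replicate 1, from 1895 and 1785 counts. TPM is scaled by library and by effective gene length, which the table gave as 2423 bases in replicate 2 and 2186 bases in replicate 1. Its level of 43.2 ± 2.50 TPM (SD, n = 2) was the highest of the 9 and exceeded that of 78.8% of detected nuclear protein-coding genes. The second table gave 26.0 TPM in replicate 2 and 23.7 TPM in replicate 1, although it assigned slightly more reads to the gene (2022 and 1900 counts). The first table's level was thus 1.74 times that of the second, while the same ratio ran from 1.06 to 1.21 for the other 8 receptors.

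The gap went with the division of Drd1 among its 3 annotated transcripts at chr13:54051183-54055705 on the minus strand. Drd1-201 and Drd1-202 are coding and begin at an upstream exon, at positions 54055658 and 54055705. Drd1-203, annotated as a processed transcript without coding sequence, begins 878 bases downstream of the start of Drd1-201, at position 54054780. Only 52 of its 405 bases are its own, and the other 353 lie within the noncoding leader of the longer transcripts. The first table gave Drd1-203 13.3 TPM in replicate 2 and 18.0 TPM in replicate 1, which was 32.1% and 39.9% of the gene's TPM. By reads it was a small part, with 76.6 of 1895 counts (4.05%) in replicate 2 and 99.3 of 1785 counts (5.56%) in replicate 1. The second table gave it 1.69 TPM in replicate 2 and 0 TPM in replicate 1.

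**Figure D2:**
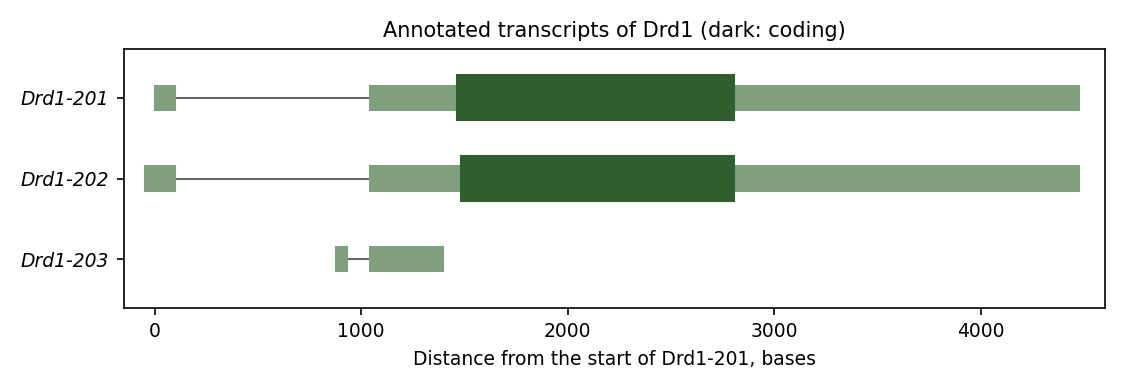
Annotated Drd1 transcripts drawn to scale by distance in bases from the start of Drd1-201, with exons as boxes, coding sequence dark and introns as lines. Drd1-203 starts 878 bases downstream and shares 353 of its 405 bases with the leader of both coding transcripts.

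RefSeq lists a start at each of these places, at the first base of Drd1-201 and at the first base of Drd1-203. The sequences from 250 bases before to 50 bases after both starts (RefSeq, GRCm38.p6, minus strand, 5′ to 3′) are shown because the tables differ on the transcript of the downstream start. Capitals mark GGGCGG, the GC box bound by Sp factors, searched on both strands.
Drd1 upstream start, chr13:54055609-54055908: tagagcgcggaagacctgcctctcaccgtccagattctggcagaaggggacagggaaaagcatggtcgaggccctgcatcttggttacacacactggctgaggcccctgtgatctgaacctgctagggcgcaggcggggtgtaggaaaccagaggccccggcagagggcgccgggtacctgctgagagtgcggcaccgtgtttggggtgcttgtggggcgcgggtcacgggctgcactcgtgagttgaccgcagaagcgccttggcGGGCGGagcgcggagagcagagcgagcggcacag
Drd1 downstream start, chr13:54054731-54055030: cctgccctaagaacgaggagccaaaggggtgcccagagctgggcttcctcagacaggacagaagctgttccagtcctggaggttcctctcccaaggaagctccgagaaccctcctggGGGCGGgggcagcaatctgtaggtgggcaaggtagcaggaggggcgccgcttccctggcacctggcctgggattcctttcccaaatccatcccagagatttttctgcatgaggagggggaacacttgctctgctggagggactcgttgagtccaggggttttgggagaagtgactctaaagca
Each holds 1 GC box, a match found in 35.7% of 32851 RefSeq promoter windows of the same length. The upstream window has 23 CpG dinucleotides and 65.7% G and C, against 6 and 59.3% in the downstream window. The median over all windows was 7 CpG dinucleotides. Of the 9 receptors 7 had windows in the RefSeq table, 9 windows in all, and none of these held the cyclic AMP response element TGACGTCA, which 1.79% of all windows hold on either strand.

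The coding transcripts of Drd1 together stood at 28.2 TPM in replicate 2 and at 27.1 TPM in replicate 1 in the first table. The tables also divided these differently. The first gave 28.2 TPM (replicate 2) and 22.4 TPM (replicate 1) to Drd1-201, and 0 and 4.63 TPM to Drd1-202. Its credibility intervals for this split were wide. For Drd1-201 they ran from 16.8 to 27.8 TPM in replicate 2 and from 11.2 to 25.9 TPM in replicate 1. For Drd1-202 they ran from 0.015 to 9.89 TPM and from 0.020 to 14.3 TPM. In replicate 2 both values lay outside their own intervals. The second gave nearly everything to Drd1-202, 24.3 TPM in replicate 2 and 23.7 TPM in replicate 1, and 0 TPM to Drd1-201. The exons of Drd1-201 lie wholly inside those of Drd1-202, which adds 50 bases, and their annotated coding sequences are 1338 and 1317 bases long without the stop codon.

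Drd2, the D2 receptor, measured 24.9 TPM in replicate 2 and 27.4 TPM in replicate 1, from 1148 and 1217 counts. Its level was 26.1 ± 1.79 TPM (SD, n = 2), above 64.5% of detected nuclear protein-coding genes. The TPM ratio of Drd1 over Drd2 was 1.67 in replicate 2 and 1.64 in replicate 1, and its mean of 1.65 became 1.15 in the second table. With the coding transcripts of the first table alone it was 1.06, and then Drd1 was above Drd2 in replicate 2 and marginally below it in replicate 1.

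The annotation holds 1 transcript of Drd2, at chr9:49340627-49408177 on the plus strand, with 8 exons. Its exon 6 is the exon that separates the long from the short form of the D2 receptor, which differ in the third intracellular loop. The exon lies at chr9:49403194-49403280 and its 87 bases encode 29 residues. It is shown because the short form, which lacks it, has no entry of its own in these tables.
Drd2 exon 6: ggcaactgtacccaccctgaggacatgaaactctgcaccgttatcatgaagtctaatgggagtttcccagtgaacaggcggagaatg
All Drd2 reads were therefore assigned to the long form (100% in both tables and both animals), and the forms could not be told apart.

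Striatal projection neuron markers give the context of these levels. Ppp1r1b, the phosphatase inhibitor DARPP-32 that dopamine regulates, reached 310 TPM in replicate 2, against 279 TPM in replicate 1, and Penk, the enkephalin precursor of indirect pathway neurons, 226 and 205 TPM. Among markers with a mean of 50 counts, the largest differences between the animals were those of Rgs9 (log2 0.30) and Isl1 (−0.58), and Gng7, next by level, had 116 ± 5.51 TPM. Adora2a, the adenosine receptor of indirect pathway neurons, stood at 37.0 ± 4.87 TPM, and Tac1 and Pdyn, peptide genes of direct pathway neurons, at 55.0 ± 7.59 and 29.9 ± 0.728 TPM (SD, n = 2). The summed level of the 18 markers was 1232 TPM in replicate 2 and 1165 TPM in replicate 1, and none was at 0. Of 7 listed deep layer cortical markers 6 matched a symbol (Ctgf did not), and all 6 were detected, led by Bcl11b at 47.7 ± 0.941 TPM. Foxp2 is on this list and on the striatal one, so the lists do not fully separate cortical from striatal neurons. How much of the Drd1 and Drd2 RNA came from striatal and how much from cortical neurons was not tested.

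Drd5, the second D1-class receptor, was the lowest of the 9. It stood at 1.39 TPM in replicate 2 and at 0.88 TPM in replicate 1, from 80 and 49 counts, or 1.14 ± 0.361 TPM (SD, n = 2). Of detected nuclear protein-coding genes 0.316% were lower, but all of these reached 1 TPM in both animals, so few could be. Drd5 itself is not among them. Its 3152 bases at chr5:38319367-38322518 form 1 exon, and 48.1% of its 31-base stretches lie in the antisense gene Gm26560 on the other strand. Gm26560 had 3 counts in replicate 2 and 0 in replicate 1. No source used here states if reads were counted by strand, so reads of Drd5 and of its antisense partner may not have been told apart.

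Adrb1, the beta-1 receptor through which noradrenaline raises cyclic AMP, measured 16.9 TPM in replicate 2 and 18.8 TPM in replicate 1, from 886 and 950 counts. Its level of 17.9 ± 1.34 TPM (SD, n = 2) lay just below that of Adra1d. At chr19:56722199-56733113 it has a coding transcript without introns, Adrb1-201, which held 96.8% and 97.0% of the gene's TPM. The noncoding Adrb1-202, of 494 bases, held the rest, from 4 counts in each animal. In the second table it had 13.3% and 7.69% of the gene's TPM. By reads it was a small part there, with 13.6 of 992 counts in replicate 2 and 7.81 of 1039 in replicate 1.

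Adra2a and Adra2c encode alpha-2 receptors, which dampen noradrenaline release from axon terminals and also act on the receiving neurons. They lie at chr19:54044151-54048982 and chr5:35278319-35281763, both on the plus strand. Adra2c reached 11.5 TPM in replicate 2, against 15.5 TPM in replicate 1, from 723 and 939 counts, and averaged 13.5 ± 2.83 TPM (SD, n = 2). Adra2a stood at 5.61 TPM in replicate 2 and at 7.66 TPM in replicate 1, from 371 and 496 counts, and averaged 6.63 ± 1.45 TPM. Adra2c was the higher of the pair in both animals, and both genes were lower in replicate 2 under each scaling tried. Adra2a has 2 annotated forms, each with 1395 coding bases. The form whose leader is spliced, Adra2a-202, held 98.6% of its TPM in replicate 2 and 93.7% in replicate 1, and the unspliced Adra2a-201 the rest. The second table gave Adra2a-202 90.9% and 90.8%.

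The alpha-1 receptors raise intracellular calcium. Adra1d lies at chr2:131545850-131562283 on the minus strand. Adra1d measured 17.6 TPM in replicate 2 and 23.1 TPM in replicate 1, from 597 and 753 counts, and averaged 20.3 ± 3.87 TPM (SD, n = 2). Adra1b had 12.5 and 12.7 TPM (12.6 ± 0.0990), and Adra1a 11.3 and 11.0 TPM (11.1 ± 0.198). For both of these the animals were nearly equal by TPM, unlike for Adra1d. The effective length of Adra1b was given as 2263 bases in replicate 2 and 2373 bases in replicate 1. By counts scaled with TMM, described below, Adra1b was 1.12-fold lower in replicate 2 (log2 −0.17), and with spike-in scaling it was higher (0.11). The antisense gene Gm14285, at chr2:131561614-131563179, overlaps the first exon of Adra1d, which spans 131561076 to 131562283. Of the receptor's 31-base stretches 6.31% were found in Gm14285 transcripts on the other strand. Gm14285 had 5 counts in replicate 2 and 15 in replicate 1. Its part in the Adra1d level was not tested.

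Adra1a and Adra1b were each divided among several transcripts. Adra1a lies at chr14:66635251-66771168 and has 6, of which Adra1a-203 ends in an exon with 12 coding bases. Its coding sequence of 1281 bases is shorter than the 1398 bases of Adra1a-201, Adra1a-202 and Adra1a-205, so the coding ends differ. The shorter form took 49.2% of the gene's TPM in replicate 2 and 53.0% in replicate 1, and the longer forms 46.5% and 44.3%. In the second table the order was turned, with 38.2% and 47.7% for the shorter and 57.7% and 49.0% for the longer forms.

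Adra1b, at chr11:43774606-43901210 on the minus strand, has transcripts that begin at an exon near position 43901210 or at the exon that holds the coding start, at position 43836332. Those of the upstream start, nearly all Adra1b-203, took 53.3% of the gene's TPM in replicate 2 and 44.8% in replicate 1. The second table gave them 63.6% and 62.0%. By reads the shares were lower, 39.2% and 31.4% in the first table and 49.3% and 47.5% in the second. Adra1b-203 is annotated with 1764 bases, and its last exon has 437 bases, all coding, against 1854 bases in Adra1b-201. Adra1b-201, with the same upstream start and the longer end, had 0 TPM in both animals in the first table. The shares therefore do not separate the start of a transcript from its annotated end. Adra1b-202 and Adra1b-204 have the same sequence under different annotations, so their reads were divided equally, at 23.4% of the gene's TPM each in replicate 2 and 27.6% in replicate 1.

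**Figure D3:**
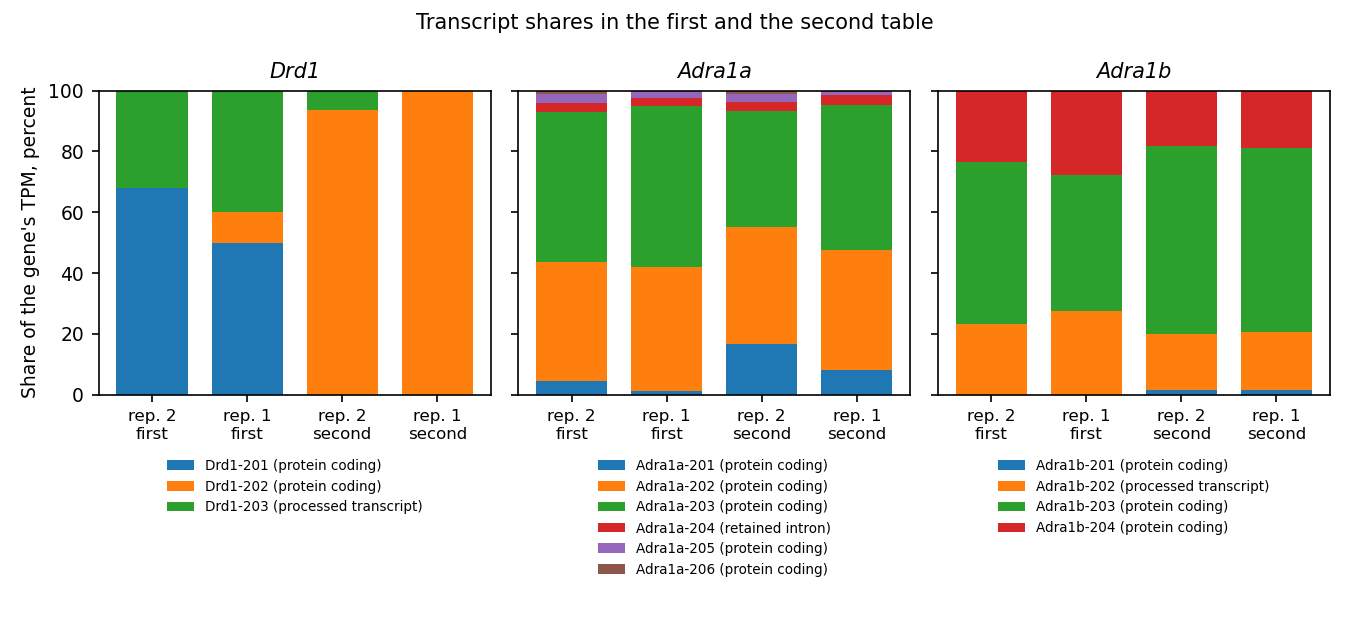
Share of each gene's TPM, in percent, taken by each annotated transcript of Drd1, Adra1a and Adra1b, with bars for replicate 2 and replicate 1 in the first table and then in the second. The noncoding Drd1-203 holds 32.1% and 39.9% in the first table and 6.48% and 0% in the second.

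The order of the 9 levels was Drd1, Drd2, Adra1d, Adrb1, Adra2c, Adra1b, Adra1a, Adra2a and Drd5. Of the 8 neighbouring pairs, 2 had TPM ranges over the animals that overlapped, Adra1d with Adrb1 and Adra2c with Adra1b. Adra2c and Adra1b changed order between the animals: Adra1b was the higher in replicate 2 and Adra2c in replicate 1, and the second table showed the same change (11.2 against 9.58 TPM in replicate 2, and 11.6 against 13.0 TPM in replicate 1, for Adra1b against Adra2c). Adra1b and Adra1a kept their order in both animals, but the quantification model's credibility intervals, whose level is not stated, overlapped in both. With coding transcripts alone their order was turned in both animals, at 9.61 TPM in replicate 2 and 9.17 TPM in replicate 1 for Adra1b, and 10.9 and 10.7 TPM for Adra1a. The noncoding transcript left out of Adra1b there, Adra1b-202, is the copy of Adra1b-204. The other 5 pairs were apart in both animals by these intervals, though for Drd1 with Drd2 this holds for the gene totals and not for the coding transcripts.

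No receptor differed more than 2-fold between the animals, where 1.25% of the 14122 genes averaging 50 counts or more did (0.623% higher and 0.63% lower in replicate 2). All 9 receptors passed that minimum. With TMM scaling, a normalization that sets the bulk of genes equal, 8 of the 9 were lower in replicate 2, against 54.4% of genes, but with scaling on the ERCC spike-ins only Adra2a, Adra2c and Adra1d were. Spike-in scaling shifted the median of all genes by 0.28 on the log2 scale, to 0.25. Drd5 was higher in replicate 2 under both. The receptors' median was −0.22, against −0.022 for all genes, and 0.055 against 0.25 with spike-in scaling.

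The receptors lowest in replicate 2 relative to replicate 1 were Adra2a (log2 −0.55, with a standard error from read counting, SE, of 0.099), Adra2c (−0.51, counting SE 0.071) and Adra1d (−0.47, counting SE 0.079), which were 1.47-, 1.43- and 1.39-fold lower in replicate 2. They were lower with spike-in scaling as well, at −0.28, −0.24 and −0.20, and in the second table at −0.53, −0.54 and −0.46. Their credibility intervals did not overlap between the animals. The same held, lower in replicate 2, for 5.87% of all genes, higher for 13.9% and in either direction for 19.8%, and for no other receptor. These differences lay inside the central 95% of all genes, from −0.57 to 0.69, and exceeded in size those of 93.0%, 91.7% and 90.1% of genes. Drd5 differed by a similar size in the other direction, 1.48-fold (log2 0.56, counting SE 0.26), with intervals that overlapped. The remaining 5 receptors lay from −0.24 to −0.051 with TMM and above 0 with spike-in scaling. Among these Adra1a (−0.055) was lower by TMM and higher by TPM in replicate 2, and its difference was smaller than its counting SE of 0.071. With 1 library per animal these differences have no replicate check and no p-value. The immediate early genes named above were lower in replicate 2 under both scalings, and their part in the receptor differences was not tested.

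**Figure D4:**
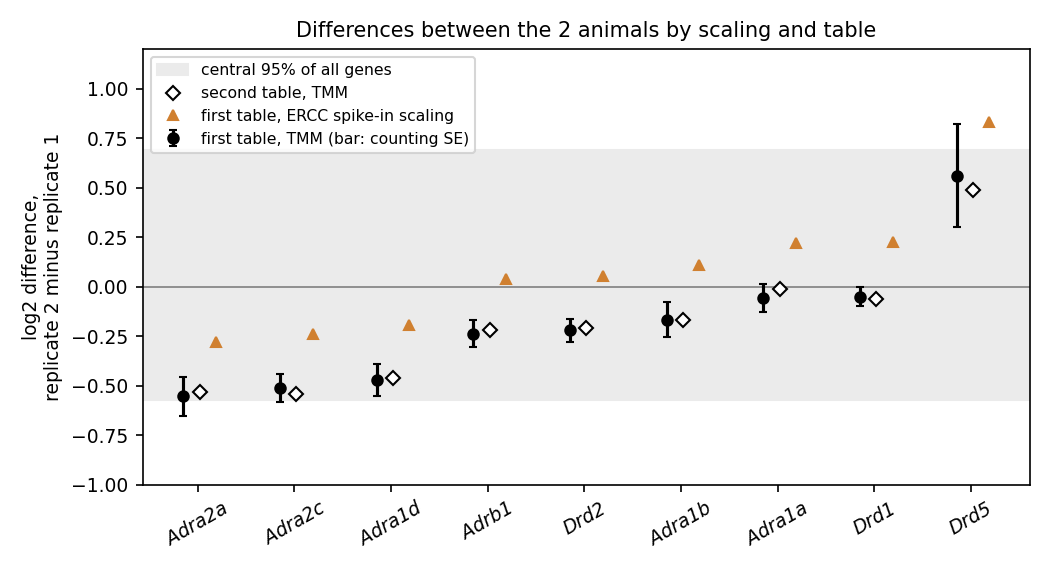
Log2 difference of each receptor, replicate 2 minus replicate 1, with TMM scaling (filled points, bars are counting SE), in the second table (diamonds) and with ERCC spike-in scaling (triangles), over the central 95% of all genes in grey. Adra2a, Adra2c and Adra1d lie below 0 under all 3, while Adrb1, Drd2, Adra1b, Adra1a and Drd1 are below 0 with TMM and above it with spike-ins.

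Other receptors of both families were low. Drd3 stood at 0.69 TPM in replicate 2 and at 1.39 TPM in replicate 1. Adra2b, Adrb3 and Drd4 stayed under 1 TPM in both animals, at means of 0.54, 0.43 and 0.24 TPM. Even Drd4 had reads, 13 counts in replicate 2 and 4 in replicate 1, above the 3 counts taken as the limit of a count of 0.

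The genes that make, store and recapture catecholamines were low as well, with 1 of 9 detected and a median of 0.225 TPM. The detected gene was Ddc, the decarboxylase that makes dopamine, at 3.68 ± 0.382 TPM (SD, n = 2). Th, the rate-limiting tyrosine hydroxylase, measured 1.18 TPM in replicate 2 and 0.94 TPM in replicate 1. Dbh, which turns dopamine into noradrenaline, had 8 and 3 counts, and the noradrenaline transporter gene Slc6a2 had 14 and 1 counts. The dopamine transporter gene Slc6a3 had 4 and 1 counts, and the vesicular transporter gene Slc18a2 0.225 TPM. Pnmt, Gch1 and Slc18a1 had 0.435, 0.390 and 0.060 TPM. Of 10 markers of midbrain dopamine neurons 2 were detected, Aldh1a1 at 26.5 ± 0.764 TPM (SD, n = 2) and Ddc, and 7 stayed under 1 TPM in both animals. Among those 7, Foxa2 and En1 had 0 counts in both animals, where 3 counts would equal 0.063 to 0.12 TPM.

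Of the enzymes that break catecholamines down, the monoamine oxidase gene Maoa reached 12.2 TPM in replicate 2, against 8.10 TPM in replicate 1, and Maob 8.15 ± 0.806 TPM (SD, n = 2). Maoa differed by log2 0.51, with intervals that did not overlap, and was also higher in replicate 2 with spike-in scaling.

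The G proteins and effectors these receptors act on had higher median levels than the receptors. By each gene's mean over the animals, the median of the receptors was 13.5 TPM, that of Adra2c. These medians were 77.2 TPM for alpha subunits, 30.3 TPM for adenylate cyclases, 23.1 TPM for phospholipase C beta, 160.6 TPM for the cyclic AMP-dependent kinase list and 30.4 TPM for receptor kinases and arrestins. Of 10 listed alpha subunit genes 9 were detected, led by Gnas, which encodes Gs, at 818 ± 17.4 TPM (SD, n = 2). Gnao1, which encodes Go, had 323 ± 14.3 TPM, and Gnal, which encodes the striatal and olfactory Golf, 123 ± 2.01 TPM. Gna14 was the exception at 0.235 TPM. All 8 listed adenylate cyclases were detected, led by Adcy1 at 142 ± 3.10 TPM. Adcy5, the main cyclase of striatal neurons, followed at 108 ± 6.97 TPM. Plcb1, a phospholipase C that Gq activates, stood at 85.8 ± 8.65 TPM, ahead of Plcb4 at 39.6 ± 1.16 TPM. The cyclic AMP-dependent kinase subunit genes Prkar1b and Prkar1a had 334 ± 9.52 and 272 ± 3.26 TPM. Grk2 and Arrb1, a kinase and an arrestin that switch off active receptors, had 95.6 ± 3.33 and 92.9 ± 2.18 TPM. Grk3 followed at 34.2 ± 3.71 TPM, and Adcy2 and Plcb3 stood at 60.2 ± 1.39 and 6.61 ± 0.318 TPM. By log2 difference Gnai3 (−0.28), Adcy3 (−0.31), Prkar2a (−0.23) and Arrb2 (−0.12) were lower in replicate 2, and Adcy7 (0.43) and Grk5 (0.12) higher; with spike-in scaling Prkar2a and Arrb2 were higher too. No gene of these 5 lists with a mean of 50 counts differed more than 2-fold between the animals.

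**Figure D5:**
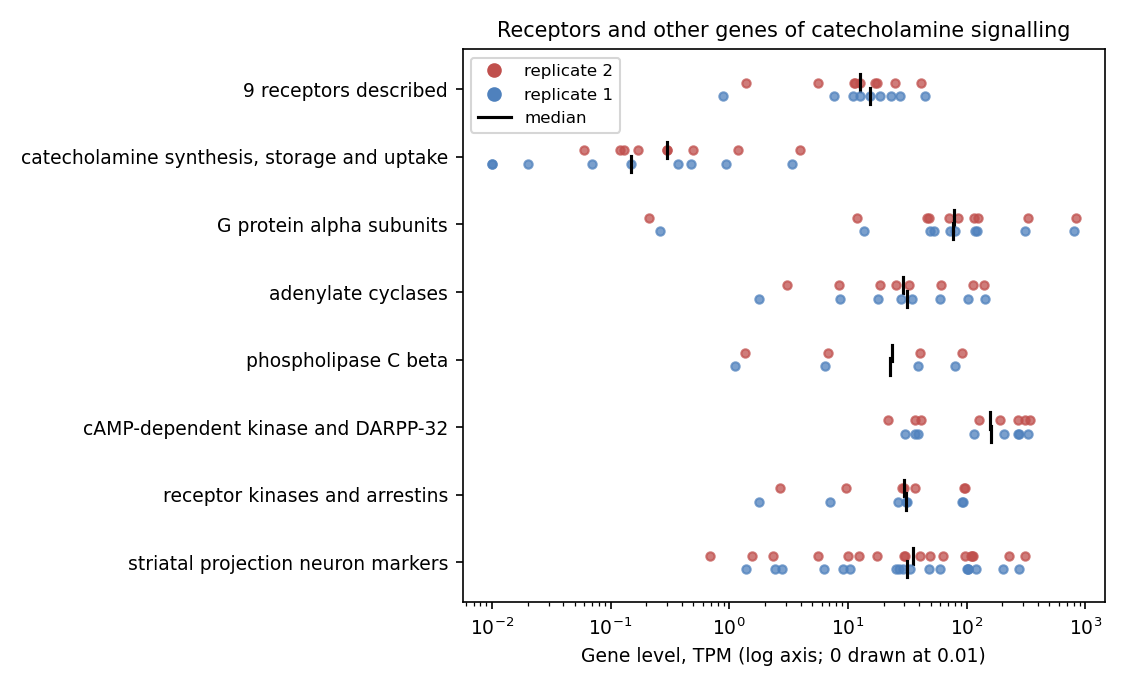
Levels in TPM on a log axis of the 9 receptors and of listed genes of catecholamine signalling, with points for genes in replicate 2 (red) and replicate 1 (blue) and black bars for the medians of each animal. By each gene's mean over the animals, synthesis genes have a median of 0.225 TPM and G protein alpha subunits one of 77.2 TPM, on either side of the receptors at 13.5 TPM.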

How the data were processed

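Levels were measured by total RNA sequencing in 2 libraries of 1 group. Reads were mapped to mm10 with GENCODE M21, per the deposited readme text, and no source used here names the aligner or counting tools. Estimated counts (expected counts in the first table) are deposited by the authors per gene and transcript without normalization. TPM values are scaled by the authors over all features of a table, and ERCC spike-ins are part of the total. Per the file headers, each transcript also has its percent of the gene's TPM. The credibility bounds are deposited scores whose level is not stated. The first table has the column layout of RSEM and the second that of kallisto, and effective lengths in the first are 100 nt below annotated lengths. Second-table values were summed per gene.

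Expected counts were rounded to whole numbers, scaled with TMM in edgeR 4.0.16 (R 4.3.3) over all genes, without spike-ins or tRNA features, and turned into log2 CPM with a prior count of 1. Log2 differences were checked on simulated counts. With 1 group there was no contrast to test between animals. The counting SE covers sampling of reads only, and reads carry no molecular identifiers. The libraries differed by more than sampling noise (chi-square 17.6 per degree of freedom over 14122 genes). Alternatives were DESeq2 1.42.0 size factors, total counts, spike-ins, other thresholds and the second table. Reads of both parental alleles were placed on mm10, whose sequence is that of C57BL/6J. Sequence windows were read from GENCODE M21 transcripts and RefSeq promoters with Biopython 1.88 and Python 3.11.15.

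The members and gene lists were chosen with earlier results of these data known. The genes named were chosen from all 9 receptors and, for each list, up to 3 with the highest TPM, up to 2 with the largest difference and, for the other receptors and the synthesis genes, those under 1 TPM in both libraries. Adora2a, Tac1, Pdyn, Foxp2, Gna14, Foxa2 and En1 were named after their values were seen. Genes of like pattern were not sought, since 2 libraries give no pattern across conditions. Marker lists of inhibitory neurons, astrocytes, oligodendrocytes, microglia and vessels were all detected, and none had a gene past 2-fold. Of the locus coeruleus list 0 of 7 genes were detected. Some genes of these lists are not reported here.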

Additional observations from a re-analysis of the deposited data

How the results depend on the processing

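The receptor levels depend most on how reads were divided among transcripts and on what TPM is scaled to. Rescaling TPM to nuclear protein-coding genes turned the median receptor level of 14.0 TPM into 29.1 TPM. The Gs share of 40.9% became 36.0% in the second table and 34.8% with coding transcripts only, an alternative chosen after seeing the data. The ratio of Drd1 over Drd2 became 1.15 and 1.06 in the same alternatives; the cause in the second table was not tested. The count of detected receptors stayed at 8 or 9 in all 5 alternatives tried, and that of receptors past 2-fold at 0 in all 6. The count of genes past 2-fold was 177, 339 with spike-in scaling (86.1% higher in replicate 2, against 49.7% with TMM) and 5167 without a filter on low counts. Leaving out an animal gives the other animal's value, so the Gs share ran from 40.0% to 41.8% and the median level from 12.5 to 15.5 TPM. Spike-in scaling turned the sign of 5 receptors, Drd1, Drd2, Adra1a, Adra1b and Adrb1, and the other scalings, the second table and a prior count of 5 turned none. No paired analysis was possible because the libraries form 1 group. Depth limits Drd5 most, with 80 and 49 counts, and the listed genes under 1 TPM.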
